A study of Dunaliella salina with 9 samples.

Results

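Abundant transcript clusters of Dunaliella salina that were more highly expressed under red light and under blue light than under white light are described here. Dunaliella salina is a unicellular green alga of salty waters, known for its β-carotene. A cluster is the unit on which the deposited tables count RNA-seq reads, and it can stand for a gene, an isoform or an allele. Its level is given as CPM, the count of a cluster divided by the library's total count, times 1000000. Members were chosen by their CPM values: a cluster was a member if its mean over all 9 libraries was at least 50 CPM, if it reached at least 1 CPM in every library, and if its lowest CPM among the 6 red and blue libraries was at least 2 times its highest CPM among the 3 white libraries. By this rule 108 of the 115975 clusters were members, and 2885 clusters met the limits on abundance and detection. The rule uses the levels under all 3 lights, so the differences from white given below are a description of how members were chosen, and they were not tested.

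The cells were cultured algal cells in mid-exponential growth. White cultures (3 libraries) had cool white light, red cultures (3 libraries) had light of 660 nm and blue cultures (3 libraries) had light of 450 nm, and all received 50 µmol photons per square metre per second. Before the move to fresh medium and the light under study, cultures were kept at 22 °C under white fluorescent lamps in cycles of 14 h light and 10 h dark. The strain, the time spent under each light, and whether each library came from its own culture are not stated in the labels. If libraries of a light shared a culture, a p-value covers only the spread among libraries, which may be technical.

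As background, green algae sense light through photoreceptor proteins and through photosynthesis itself. Phototropins and cryptochromes absorb blue light, and some algal cryptochromes also respond to red light, as known from the green alga Chlamydomonas. Chlorophyll absorbs strongly in the red and in the blue, so that both narrow bands drive photosynthesis. Which of these processes any member belongs to cannot be read from the tables, because they do not pair identifiers with gene names and 0 identifiers matched the 16683 genes of the RefSeq table for the D. salina assembly.

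The libraries held 16279167 to 24526786 counts. The chi-square of the counts per cluster, which is near 1 for repeat runs of a library, was 33.5 to 121 for pairs of white libraries. It was 7.02 to 11.4 for pairs of red and 10.9 to 19.1 for pairs of blue libraries, so that the white group was the least even. No pair within a light was alike within sampling noise. The lowest count behind any member's value was 19.3, in white 1, with an exact Poisson interval at 95% confidence of 11.7 to 30.1, which covers counting error only.

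Members held a smaller share of the counts under white light than under both narrow bands. Together they held 0.562% of the counts in white 1, 0.299% in white 2 and 0.400% in white 3. Their share was 2.44%, 2.44% and 2.77% in the red libraries 1 to 3. The blue libraries 1 to 3 gave 2.71%, 2.51% and 2.31%. Wilson intervals at 95% confidence extended by at most 0.00752 percentage points to either side. They cover counting error only and not the spread between libraries. The mean share was 0.421% ± 0.13 under white light, 2.55% ± 0.19 under red and 2.51% ± 0.20 under blue (SD, n = 3). Members thus took about equal shares of the reads under red and blue. White libraries lay apart from all others by construction. In contrast, the 2885 clusters that met the abundance limits had shares of 76.3% ± 1.6 under white, 73.0% ± 0.98 under red and 71.3% ± 0.55 under blue light (SD, n = 3).

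**Figure D1:**
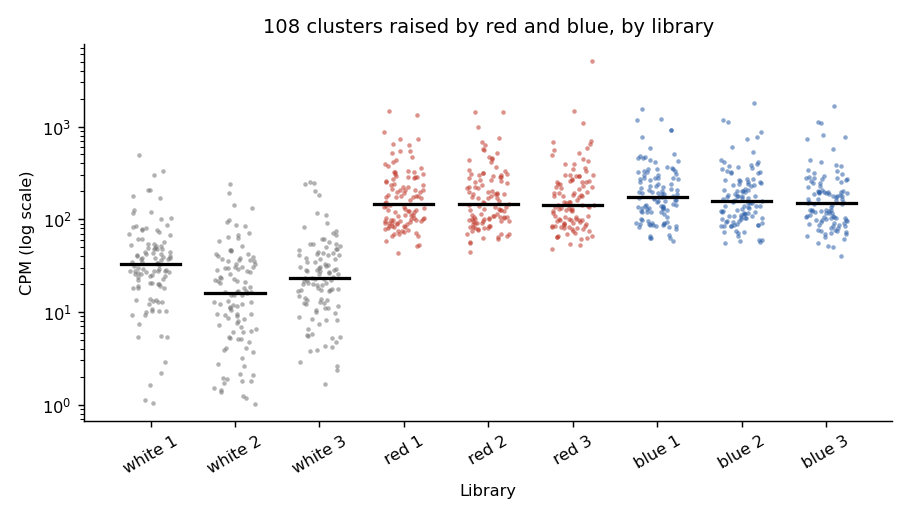
Expression of the 108 members in each library, as CPM on a log scale, with 1 point per member and a black line at the median. The medians are 16.1 to 32.8 CPM in the white libraries, 142 to 148 CPM in the red libraries and 148 to 173 CPM in the blue libraries, and the separation of white from the others is what the rule selected.

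The median over members of the mean level was 24.7 CPM in white, 144 CPM in red and 158 CPM in blue, each taken separately. Between members the group means spanned 1.38 to 262 CPM for white, 45.3 to 2614 CPM for red and 53.3 to 1677 CPM for blue. In 96 members every white library was under 100 CPM, and in 9 members every white library was under 10 CPM. In 62 members every red and blue library reached at least 100 CPM. Adjusted for length, as deposited FPKM (counts per kilobase of length and scaled to library size), the median over members was 9.77 for white, 76.0 for red and 71.2 for blue libraries.

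The size of the difference from white varied widely among members. The ratio of the red mean to the white mean had a median of 5.89 and ran from 2.21 to 198. For blue the median was 5.65 and the range 2.15 to 169. Ratios of at least 10 were found in 27 members for red, in 28 for blue and in 22 for both. At the other end, 19 members had a ratio under 3 for at least 1 of the bands. Both comparisons share the white libraries, so their likeness is not evidence of a shared response.

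The 12 members with ratios of at least 20 under both bands were low in white, with a median of 5.53 CPM, against 175 CPM in red and 192 CPM in blue. The member with the widest margin had 1.12, 1.37 and 1.66 CPM in white 1 to 3. It had 285, 275 and 259 CPM in red 1 to 3 and 265, 235 and 199 CPM in blue 1 to 3. Its red mean was 198 times and its blue mean 169 times the white mean, and red and blue overlapped at their edges. It was 3679 bases long, by the effective length that the FPKM values imply.

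The next 4 members by margin also had low levels in white and far higher levels elsewhere. The second had 1.05, 3.66 and 2.37 CPM in white 1 to 3, 127 to 142 CPM in red and 174 to 178 CPM in blue. In the third, white was at 1.81 to 5.41 CPM, red at 180 to 189 CPM and blue at 165 to 192 CPM. The fourth had 6.14 to 12.1 CPM in white, 284 to 300 CPM in red and 270 to 281 CPM in blue. The fifth lay at 4.08 to 8.24 CPM in white, at 222 to 227 CPM in red and at 182 to 230 CPM in blue. These members were ranked by their margin over white, so a gap wider than the spread within a light is largely set by the choice.

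At the limit of the rule, the 5 members just inside had a lowest red or blue library of 2.00 to 2.02 times the highest white library. The 5 clusters just outside reached 1.97 to 1.99 times. The member closest to the limit had 126, 39.3 and 46.9 CPM in white 1 to 3, 547, 563 and 586 CPM in red 1 to 3, and 334, 326 and 251 CPM in blue 1 to 3, so that white 1 and blue 3 set its place. The cluster closest to the limit from outside had 72.0, 7.27 and 32.9 CPM in white 1 to 3, and 143 to 157 CPM in the red and blue libraries. Both are alike in that white 1 was the highest white library.

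The 5 members that took the most reads differed in how even they were. The member with the highest mean CPM had 117, 11.1 and 4.74 CPM in white 1 to 3. It had 1343, 1420 and 5077 CPM in red 1 to 3 and 1564, 1813 and 1653 CPM in blue 1 to 3. Red 3 stood far above red 1 and red 2, and its coefficient of variation in red, 81.6%, was the highest of all members, the next being 25.1%. Without this member, members held 2.26% of the counts of red 3 in place of 2.77%.

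The member that took the second most reads had 499, 46.3 and 200 CPM in white 1 to 3. It was even in red, at 1426 to 1477 CPM, and in blue, at 1127 to 1215 CPM. The third had 332, 134 and 255 CPM in white 1 to 3, 677 to 726 CPM in red and 1104 to 1190 CPM in blue, so that every blue library was above every red one. The same order held in the fourth, with 238 to 302 CPM in white, 626 to 648 CPM in red and 812 to 915 CPM in blue. The fifth had the opposite order, with 99.3 to 179 CPM in white, 871 to 1083 CPM in red and 418 to 596 CPM in blue. None of the 5 passed the test of blue against red (edgeR, Benjamini-Hochberg adjusted p = 0.059 to 0.93).

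Per length, the fifth of these was the most abundant member, at a mean of 755 FPKM in white, 5958 FPKM in red and 3060 FPKM in blue. Its effective length was 170 bases. The second per length, which took the fourth most reads, had 278 FPKM in white, 677 FPKM in red and 915 FPKM in blue over 941 bases. FPKM values of very short clusters rest on a small effective length and are sensitive to how that length was set.

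Blue light was compared with red light because the rule did not set these against each other. In the fit of all 38376 clusters with enough counts, 7 members were higher in blue and 3 were lower (quasi-likelihood test of edgeR, threshold of 0.05 for the adjusted p). Of all tested clusters, 1.69% were called, 0.667% higher and 1.02% lower in blue. The 2885 clusters within the abundance limits, below called clusters of like abundance, share those limits only and were not matched to members in level. Among them the shares were 3.12% and 8.53%, beside 6.48% and 2.78% of members. In either direction 9.26% of members were called, near the 11.6% of clusters of like abundance.

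The median log2 difference between blue and red was -0.11 over members, -0.06 over clusters of like abundance and -0.03 over all tested clusters. With library totals as the only scaling the median over members was 0.0030. In CPM the blue mean was above the red mean in 54 of the 108 members, and the means were within 1.2-fold of each other in 46 and within 2-fold in 103. Every blue library lay above every red library in 42 members and below in 29. These are 38.9% and 26.9% of members, beside 21.3% and 12.7% of all tested clusters and 39.3% and 31.6% of clusters of like abundance.

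**Figure D2:**
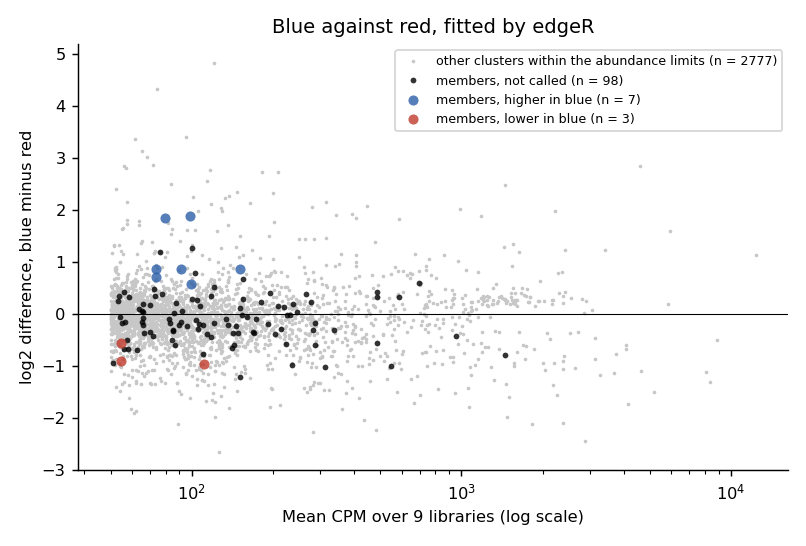
Fitted log2 difference between blue and red (blue minus red) against mean CPM over the 9 libraries on a log scale, for 108 members (black, or coloured where called by edgeR) and 2777 other clusters within the abundance limits (grey). Members lie around the zero line like the grey points, with 7 called above it and 3 called below.

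The largest difference was seen in Cluster-15686.50042 (effective length 1586 bases), which was nearly silent in white, low in red and high in blue. It had 2.18, 1.71 and 2.64 CPM in white 1 to 3, 53.2, 60.5 and 62.3 CPM in red 1 to 3, and 272, 240 and 194 CPM in blue 1 to 3. No libraries of different lights overlapped. The fitted log2 difference between blue and red was 1.89 ± 0.18 (approximate SE, edgeR adjusted p = 0.0038). The blue mean was 108 times the white mean, and the red mean 26.9 times.

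Cluster-15686.44726 (1912 bases) had a small margin in red and a large one in blue. Its levels were 18.3, 16.6 and 17.4 CPM in white 1 to 3, 43.3, 44.4 and 48.3 CPM in red 1 to 3, and 174, 179 and 177 CPM in blue 1 to 3. Libraries of each light were tightly grouped, at 17.5 ± 0.85, 45.3 ± 2.6 and 177 ± 2.5 CPM (SD, n = 3). The fitted log2 difference between blue and red was 1.85 ± 0.10 (edgeR adjusted p = 0.00036). This cluster and Cluster-15686.50042 were the 2 called members that differed at least 2-fold, and both kept their call in all 17 alternative fits.

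Cluster-15686.44888 (4621 bases) was lower in blue than in red. It had 24.3, 21.7 and 23.7 CPM in white 1 to 3, 210, 198 and 191 CPM in red 1 to 3, and 123, 124 and 87.0 CPM in blue 1 to 3. Blue thus lay between white and red, with no overlap. The fitted log2 difference was -0.95 ± 0.13 (edgeR adjusted p = 0.014). The call was lost in 6 of 17 alternative fits. Without red 1, red 2, red 3, blue 2 or white 3 the edgeR adjusted p was 0.077, 0.073, 0.078, 0.069 and 0.051, within a range over the 17 of 6.0e-08 to 0.078.

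Cluster-15686.52100 (1264 bases) had the same order of lights. It had 12.9, 9.49 and 8.36 CPM in white 1 to 3, 98.9, 96.1 and 96.8 CPM in red 1 to 3, and 63.4, 55.8 and 50.7 CPM in blue 1 to 3. Again the 3 lights did not overlap. The fitted log2 difference was -0.89 ± 0.13 (edgeR adjusted p = 0.021). The call was lost in 9 of 17 alternative fits. With any 1 red or blue library left out the edgeR adjusted p was between 0.066 and 0.13. It was 0.055 with library totals and 0.052 without the filter, within a range over the 17 of 3.0e-09 to 0.13.

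**Figure D3:**
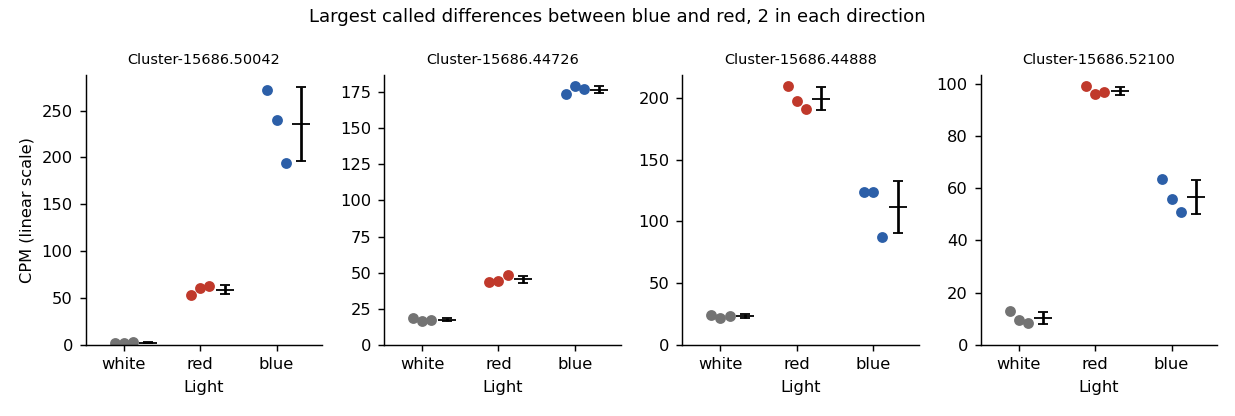
CPM on a linear scale in each library (points) for the 2 members with the largest called difference between blue and red in each direction, with the mean and SD of each light (n = 3) beside the points. In Cluster-15686.50042 and Cluster-15686.44726 blue is highest, and in Cluster-15686.44888 and Cluster-15686.52100 red is highest, while white is lowest in all 4.

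The other 5 members called higher in blue had fitted log2 differences of 0.58 to 0.88, and the third member called lower had -0.56. The 7 called higher had a median ratio to white of 2.70 in red and 6.13 in blue, and their highest white mean was 43.2 CPM. The 3 called lower had red means of 2.93 to 9.49 times and blue means of 2.15 to 5.53 times the white mean. At the opposite extreme, the 3 members with the closest red and blue means had 151 ± 3.2 and 150 ± 6.8 CPM, 174 ± 5.6 and 176 ± 11 CPM, and 112 ± 9.3 and 113 ± 16 CPM in red and blue (SD, n = 3).

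The number of members called differed between fits. Fitted without the white libraries, the counts gave 21 members called higher and 22 called lower in blue, that is 19.4% and 20.4% of members, beside 5.81% and 5.24% of the 35237 clusters tested and 16.6% and 24.2% of clusters of like abundance. Leaving out 1 library gave 2 (without red 2) to 20 (without white 1) called members, where 0.288% and 3.22% of all tested clusters were called. The number was 17 without white 2 and 6 without white 3, beside 3.19% and 0.554% of all clusters. It was 3 without red 1, 4 without red 3, 4 without blue 1, 3 without blue 2 and 4 without blue 3, beside 0.309% to 0.471% of all clusters.

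White libraries were the least even, and the spread had a direction. The median coefficient of variation over members was 33.1% for white, 4.23% for red and 11.2% for blue libraries, beside 18.3%, 4.52% and 5.35% over clusters of like abundance. Members were low in white by the rule, at a median of 24.7 CPM, and the other clusters were not matched to that level. White 1 was the highest white library in 78 of the 108 members (72.2%, beside 58.9% of clusters of like abundance). White 2 was the lowest in 77 (71.3%, beside 57.1%). The ratio of white 1 to white 2 had a median over members of 1.72 in CPM and 1.45 after TMM scaling. Over clusters of like abundance the median was 1.18 and 0.99.

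Members with a wide and with a narrow spread in white differed in the ratio of the red and blue means to the white mean. In 29 members the highest white library was at least 4 times the lowest, in 28 of them with white 1 highest and in 27 with white 2 lowest. They are 26.9% of members, beside 13.0% of clusters of like abundance. Their red and blue means were 7.51 and 7.86 times the white mean at the median. In 31 members the white libraries were within 1.5-fold of each other, and the medians were 3.36 for red and 4.16 for blue. The lowest red or blue library over the highest white library differed less, with medians of 3.17 in the 29 and 2.49 in the 31. Since the rule compares with the highest white library, a member with an uneven white group needs a larger ratio of means to enter.

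**Figure D4:**
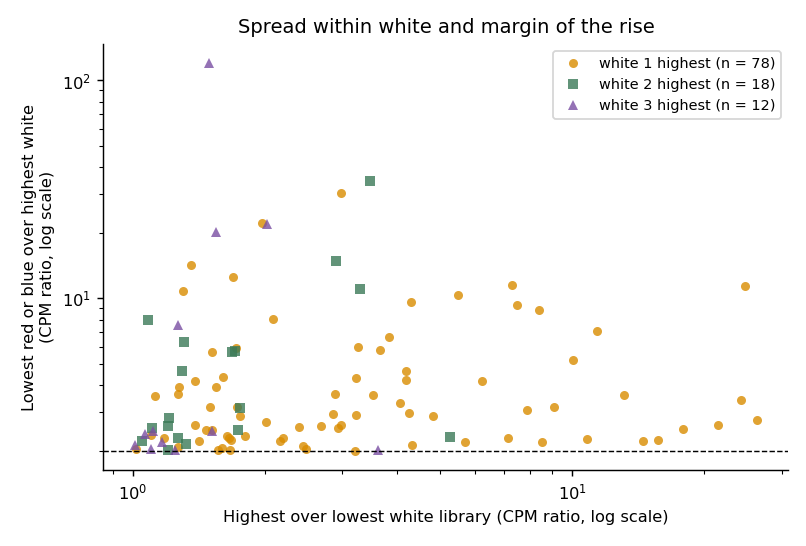
Ratio of the lowest red or blue library to the highest white library against the ratio of the highest to the lowest white library, both in CPM on log scales, with 1 symbol per member, marked by which white library was highest. All members lie above the dashed limit of 2 by construction, and members with an uneven white group nearly all have white 1 highest.

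White 1 decided how many clusters entered. Without white 1 the rule took 402 clusters in place of 108. All 108 were among them by construction, since leaving out a white library can only ease the rule for a member. Of the 294 clusters gained, 267 had every red and blue library above white 1, but the median margin over white 1 was 1.35-fold. Clusters at least 2-fold above white 1 could be gained only through the abundance limits, so this low margin is largely set by the choice. Without white 2 the rule took 129 clusters and without white 3 113. Leaving out 1 red or blue library gave 106 to 126 clusters, the 126 without blue 3, and at least 105 of the 108 stayed. Such an omission eases the 2-fold limit, so a member could drop out only through the limit on the mean.

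The spread in white entered the test of blue against red, since the fit pools it over the lights. The approximate SE of the fitted log2 difference had a median of 0.53 in the 29 members with a wide white spread and 0.12 in the 31 with a narrow one. The 10 called members included 7 of the 31 and 0 of the 29, where 1.69% of all tested clusters and 11.6% of clusters of like abundance were called. In the fit without white libraries the median SE was 0.11 and 0.080, and 6 of the 29 and 14 of the 31 were called. In that fit 11.05% of all tested clusters were called. Of clusters of like abundance, 16.6% were called higher and 24.2% lower in blue. Shares among other clusters of like white spread were not compared, and the part that the spread plays in the calls was not tested.

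The blue libraries held an order as well. Blue 1 was the highest blue library in 83 members and blue 3 the lowest in 83, that is 76.9% for both, beside 45.4% for both among clusters of like abundance. Members were 1.19 times higher in blue 1 than in blue 3 at the median (1.14 times after TMM scaling), where clusters of like abundance gave 1.03 and 0.98. For red 1 and red 3 the median ratio over members was 1.02 (0.96 after TMM scaling).

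The 74 clusters that were lower under both bands by the mirrored rule showed the reverse orders. White 1 was the lowest white library in 66.2% of them and blue 1 the lowest blue library in 66.2%. Their median ratio of white 1 to white 2 was 0.70, and of blue 1 to blue 3 0.75. The levels behind these orders also entered the rules, so the orders are descriptions.

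The scaling bears on the margin over white. TMM factors, which correct for the composition of a library, were 0.788 to 0.936 in white, 0.999 to 1.08 in red and 1.09 to 1.16 in blue, so that CPM without them are relatively low in white. With TMM-scaled CPM all 108 members had every red and blue library above every white one, 105 by at least 1.5-fold. Factors this close to each other cannot undo a 2-fold limit, so that order was set by the choice of members. On this scale 73 clusters met the full rule, 71 of them members. The mirrored rule then took 116 clusters in place of 74. The median log2 difference of all tested clusters from white was 0.31 in red and 0.28 in blue with TMM, and 0.60 and 0.67 with library totals. Relative to it, the median over members was higher by 2.01 in red and 1.85 in blue on the log2 scale with TMM. With library totals it was higher by 1.97 and 1.83.

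Members were close in length to clusters of like abundance. Their effective length had a median of 2216 bases and quartiles of 1390 and 3470 bases, beside a median of 1970 and quartiles of 1184 and 3141 bases for clusters of like abundance, and a median of 1385 bases for the 74 lowered clusters. Under 300 bases were 1.85% of members, 1.66% of clusters of like abundance and 13.5% of lowered clusters. The shortest member was 119 bases long, with 16.3 to 25.4 CPM in white, 51.2 to 83.8 CPM in red and 80.7 to 107 CPM in blue. The longest was 8143 bases long, with 194 to 242 CPM in white, 678 to 747 CPM in red and 486 to 570 CPM in blue.

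Most members had estimated counts that were not whole numbers. Dividing a read among clusters can give such values, but what gave them here is not stated in the labels. In 96 of 108 members (88.9%) at least 1 of the 9 counts was not whole, and in 67 (62.0%) none was. Among clusters of like abundance these shares were 64.6% and 44.2%, and among the lowered clusters 81.1% and 68.9%. Put the other way, members made up 5.15% of the 1863 clusters of like abundance with a count that was not whole and 1.17% of the 1022 with whole counts, and lowered clusters 3.22% and 1.37%. The part that fractional counts play in the difference from white was not tested.

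**Figure D5:**
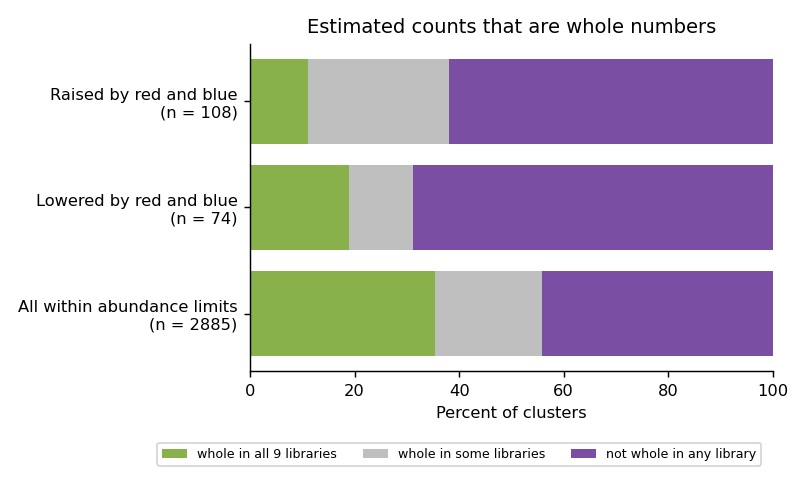
Percent of clusters whose estimated counts are whole in all 9 libraries, in some, or in none, for the 108 members, the 74 clusters lowered under both bands and all 2885 clusters within the abundance limits. Members have the smallest share of clusters with whole counts throughout (11.1%, beside 18.9% and 35.4%).

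The 12 members with whole counts in all libraries met the same rule, which fixes their direction. Their red means were 2.26 to 26.9 times and their blue means 2.42 to 108 times the white mean, with medians of 3.23 and 4.18, against 6.29 and 5.94 in the other 96. The one that took the most reads, 4078 bases long, had 67.9, 42.2 and 47.7 CPM in white 1 to 3, 334, 339 and 298 CPM in red 1 to 3, and 419, 367 and 297 CPM in blue 1 to 3. White lay far below, and red and blue overlapped. The next had 48.7 to 58.8 CPM in white, 168 to 179 CPM in red and 165 to 188 CPM in blue. Cluster-15686.50042 and Cluster-15686.44726, with the largest differences between blue and red, were also among the 12.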

How the data were processed

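Libraries were made from 1.5 µg of total RNA with the NEBNext Ultra RNA kit, per the labels' protocols. The submitters' processing notes name DESeq 1.10.1; the aligner, counting tool and assembly are not given in the sources used here. The tables deposited by the authors give an estimated count per cluster, not scaled, and an FPKM value. Effective length was derived from both, as the median over libraries with at least 50 counts. Members were chosen on unscaled CPM. The members and lists were chosen with earlier results of these data known.

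Estimated counts were rounded, filtered (filterByExpr), TMM-scaled and tested by robust quasi-likelihood (glmQLFit, glmQLFTest; edgeR 4.0.16, R 4.3.3) on all 9 libraries with light as the only term. Benjamini-Hochberg adjustment ran over all 38376 clusters tested, with 0.05 as the threshold. The SE is the log2 difference divided by the square root of F. All 108 members passed the filter. Named were the 2 members with the largest called difference in each direction between blue and red; others are given by rank. Alternatives used RLE factors, library totals, DESeq2 1.42.0, limma-voom (limma 3.58.1), other filters and thresholds, fewer libraries and the replicate number as a block. The code was tested on simulated counts. Replicate numbers were not taken to pair libraries.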

Additional observations from a re-analysis of the deposited data

How the results depend on the processing

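The 108 members became 250 with a 1.5-fold limit, 37 with a 4-fold limit, 61 with the mean limit at 100 CPM, 279 with it at 10 CPM, 173 with no minimum in every library, and 106 to 402 when single libraries were dropped. TMM or RLE scaling gave 73, and FPKM for the 2-fold limit 108. FPKM divides the same counts by length and library size, so it could hardly change a ratio between libraries. The 10 members called between blue and red became 22 with DESeq2, 21 with limma-voom, 21 in a fit of clusters above a mean of 10 CPM and 43 with red and blue libraries only, where 6.31%, 2.80%, 10.97% and 11.05% of all tested clusters were called (1.69% in the reported fit). They became 3 at a threshold of 0.01 and 2 if at least 2-fold, where the share of all tested clusters was not counted. When single libraries were dropped they became 2 to 20. With RLE factors, library totals and no filter the number was 10, 10 and 8, where 1.29%, 2.43% and 0.395% of all tested clusters were called. Of those called, 70.0% were higher in blue in the reported fit, 80.0% with library totals, 60.0% with RLE factors, 50.0% with DESeq2 and without white 1, 48.8% with red and blue libraries only, 47.6% above a mean of 10 CPM and 42.9% with limma-voom, so that the balance was not stable. The median log2 difference of members, -0.11, was 0.0030 with library totals and between -0.14 and -0.04 with 1 library left out. No named member changed sign. Stricter limits keep fewer clusters by construction; otherwise the cause was not tested.

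With the replicate number as a block, 3 members were called, all higher in blue, where 0.506% of all tested clusters were called. The edgeR adjusted p was then 0.060 for Cluster-15686.44888 and 0.056 for Cluster-15686.52100. Deviations from the group means of same-numbered libraries correlated at 0.0053 to 0.066, against -0.066 to 0.040 for other pairs. The best match in another light had the same number in 14 of 18 cases. The labels do not say whether the numbers pair libraries, and light was kept as the only term in the reported fit. Fewer members were called with the block.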

Other observations

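With the limit on the mean at 10 CPM in place of 50 CPM, 279 clusters met the rule, and members were 38.7% of them. Without the minimum of 1 CPM in every library, 173 clusters met it, so that 65 further abundant clusters were under that level in at least 1 library. The 294 clusters that met the rule only when white 1 was left out were high in white 1, as leaving it out selects for. Their level in white 1 was 2.93 times the mean of white 2 and white 3 at the median.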
